A study of Mus musculus with 12 samples.

Results

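The uncoupling protein genes Ucp3 and Ucp2 lie next to each other on mouse chromosome 7, and H3K27ac at both was followed in 4T1 cells under 6 treatments. Members were all intervals of the spike-in scaled ChIP-seq table that the authors' annotation assigned to either symbol. There were 10 such intervals of 126464 in the table, 7 assigned to Ucp3 and 3 to Ucp2, and these are 2 of 22264 symbols. The pair was selected on its measured H3K27ac values across the 6 treatments of this table, so the values and fold changes of both genes are given as a description, with no test.

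Acetylation of histone H3 at lysine 27 (H3K27ac), a mark of active enhancers and promoters, was profiled by chromatin immunoprecipitation and sequencing to ask how acetyl-CoA supply bears on this mark in metastatic breast cancer cells. 4T1 is an established mouse mammary carcinoma line, and all samples carry the genotype label WT. The treatments lasted 48 h and combined acetate at 5 mM with inhibitors at 50 µM. They were vehicle, etomoxir or both etomoxir and SB204990, each with and without acetate, and gave 12 libraries, 2 per treatment. Acetate can be turned into acetyl-CoA, etomoxir inhibits carnitine palmitoyltransferase 1 (CPT1), which admits long-chain fatty acids to mitochondria, and SB204990 inhibits ATP citrate lyase, which makes acetyl-CoA from citrate. All groups share the same cell line, and no group was given SB204990 without etomoxir. Library names carry either of a pair of suffixes, called set 1 and set 2 here, whose meaning is not given, nor is it stated whether the libraries came from separate cultures. The p-values given below for other genes therefore measure only the spread between these libraries, which may be technical.

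Uncoupling proteins are carriers of the mitochondrial inner membrane in the SLC25 family. UCP1 of brown fat lets protons return to the matrix without ATP synthesis, while UCP2 is found in many tissues and UCP3 mainly in skeletal muscle, heart and brown fat. The roles of UCP2 and UCP3 are less settled and have been tied to limiting reactive oxygen species and to the handling of fatty acids. Ucp3 is a known target of the peroxisome proliferator-activated receptors (PPARs), nuclear receptors that bind fatty acids and pair with the retinoid X receptor (RXR) on DNA.

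Reads in intervals ranged from 7179165 in the set 2 library of etomoxir + SB204990 to 16676442 in the set 1 library of acetate. Values are scaled reads, that is, reads multiplied by the authors' spike-in factor of the library (0.398 to 1). The set 2 library of etomoxir + SB204990 stood apart. On average it correlated with the others at 0.915, vs. 0.949 to 0.958 for the rest, and 2.77% of its reads lay in the weakest quartile of intervals, vs. 0.990% to 1.41%. In the spike-in scaled fit, changes of the Ucp2 and Ucp3 sums that use this library are also given within set 1 or without it. So are those of the single intervals described in etomoxir + SB204990 vs. vehicle. Values under other scalings, or summed over other intervals, are given only with it. Each set has a library with a factor of 1, so the factors of the sets may not share a scale, and pooled means, SDs and overlaps between groups mix the sets. Of 6 epithelial markers, 4 had intervals (summed level 5104 to 12091 scaled reads), and Krt7 and Krt18 had none. Of the skeletal muscle markers 2 of 5 had intervals, with a summed level of 38.2 to 121 scaled reads, and Myod1, Myog and Myh4 had none. Of the adipocyte markers 3 of 4 had intervals (86.8 to 246 scaled reads) and Plin1 had none, and of the blood cell markers 2 of 3 had intervals (35.0 to 110 scaled reads). In bulk chromatin, more cells that carry the mark and more of the mark per cell cannot be told apart.

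In GENCODE M21 (GRCm38, the build of the table, mm10), Ucp3 spans chr7:100472990-100486432 and Ucp2 spans chr7:100493337-100502020, both on the plus strand. C2cd3, a centriole gene, ends upstream of Ucp3 (chr7:100372233-100470152, plus strand), and the antisense transcript Gm10603 (chr7:100446737-100474846, minus strand) runs across the Ucp3 start. The sequences before both start sites are shown because intervals of acetylation covered both. They are the RefSeq promoter windows of GRCm38.p6, printed on the plus strand up to the base before the GENCODE start, at chr7:100472741-100472989 for Ucp3 and chr7:100493108-100493336 for Ucp2, and capitals mark AGGTCA, the hexamer bound by PPAR, RXR and other nuclear receptors.
Ucp3 promoter: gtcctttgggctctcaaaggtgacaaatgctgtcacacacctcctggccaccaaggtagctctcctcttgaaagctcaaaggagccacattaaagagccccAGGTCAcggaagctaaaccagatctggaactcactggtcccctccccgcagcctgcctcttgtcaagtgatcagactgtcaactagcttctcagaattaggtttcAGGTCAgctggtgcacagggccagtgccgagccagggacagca
Ucp2 promoter: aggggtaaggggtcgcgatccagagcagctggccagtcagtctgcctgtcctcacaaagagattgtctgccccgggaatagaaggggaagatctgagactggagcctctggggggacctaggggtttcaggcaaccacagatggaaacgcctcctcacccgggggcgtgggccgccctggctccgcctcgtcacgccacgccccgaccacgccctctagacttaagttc
Both strands were searched in windows of 300 bp that reach 50 bp past the start. The Ucp3 window held 2 hexamers, 5 CpG and 55% G + C, and the Ucp2 window held 0 hexamers, 21 CpG and 64.3% G + C. Of 32851 promoter windows of the same length, 16.3% held at least 1 hexamer and 1.81% held 2 or more, with a median of 7 CpG and 52.7% G + C. A match is a description of letters and not of a bound site.

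The paired element of PPAR and RXR, AGGTCANAGGTCA, was searched on both strands of all member intervals. Its best matches are shown with 8 bases on either side, the element in capitals and each read along the strand of the match. The first lies at chr7:100463281-100463309 (plus strand) inside the largest Ucp3 interval, in an intron of C2cd3 and an exon of Gm10603, with 1 mismatch and -9695 bp from the Ucp3 start. The second lies at chr7:100498391-100498419 (minus strand) in a coding exon of Ucp2, with 0 mismatches.
Ucp3 upstream match: atcctaggAGGTCACAGGCCAaccaaaca
Ucp2 exon match: ctttgatgAGGTCATAGGTCAccagctca
Of 2996 intervals whose length was within 20% of that of the largest Ucp3 interval, 25.3% held a match with at most 1 mismatch. That interval also held 14 hexamers, vs. a median of 7 in those intervals. Of 3480 intervals within 20% of the length of the Ucp2 interval, 2.96% held an exact match. The interval over the Ucp3 start held 0 matches with at most 1 mismatch and 5 hexamers, the median for its length.

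H3K27ac assigned to Ucp3 was about 2-fold higher in each comparison that added etomoxir, with or without SB204990, while that assigned to Ucp2 changed less, with log2 fold changes 0.11 to 0.31 above the median of all genes. Over the intervals at the Ucp3 body and the 1000 bp before it, whatever their symbol, the Ucp3 log2 fold changes were 0.63 to 1.16. Summed over its 7 intervals, Ucp3 had 207 and 288 scaled reads in the vehicle libraries (set 1 and set 2, in this order throughout; mean 248 ± 57.5, SD, n = 2). The acetate libraries had 347 and 359 (353 ± 8.59). The etomoxir libraries had 575 and 534 (555 ± 29.5) and the etomoxir + acetate libraries 903 and 828 (866 ± 52.7). With etomoxir + SB204990 the values were 437 and 623 (530 ± 131), and with etomoxir + SB204990 + acetate they were 663 and 792 (727 ± 91.1). All 8 libraries with etomoxir were thus above all 4 without it. From low to high the order of the means was vehicle, acetate, etomoxir + SB204990, etomoxir, etomoxir + SB204990 + acetate and etomoxir + acetate, and only the libraries of etomoxir and etomoxir + SB204990 overlapped among neighbours in this order. Within either set the order was the same, except that these treatments changed places in set 2. These sums rest on 364 to 1098 reads per library, a counting error of 3.02% to 5.24%, which does not cover other error.

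Ucp2, summed over its 3 intervals, had 268 and 316 scaled reads in vehicle (292 ± 33.8) and 447 and 458 in acetate (453 ± 8.22). Etomoxir gave 379 and 351 (365 ± 20.1), and etomoxir + acetate gave 699 and 626 (662 ± 51.7). Etomoxir + SB204990 gave 261 and 387 (324 ± 88.9), a range that covers the vehicle and etomoxir libraries, and etomoxir + SB204990 + acetate gave 468 and 601 (534 ± 94.3). Here the 3 treatments without acetate were lowest and the 3 with acetate were highest, without overlap. Per kb of assigned interval, Ucp2 was above Ucp3 in vehicle (20.3 vs. 11.2 scaled reads per kb) and in acetate (31.4 vs. 16.0), and they were close in etomoxir (25.3 vs. 25.2).

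**Figure D1:**
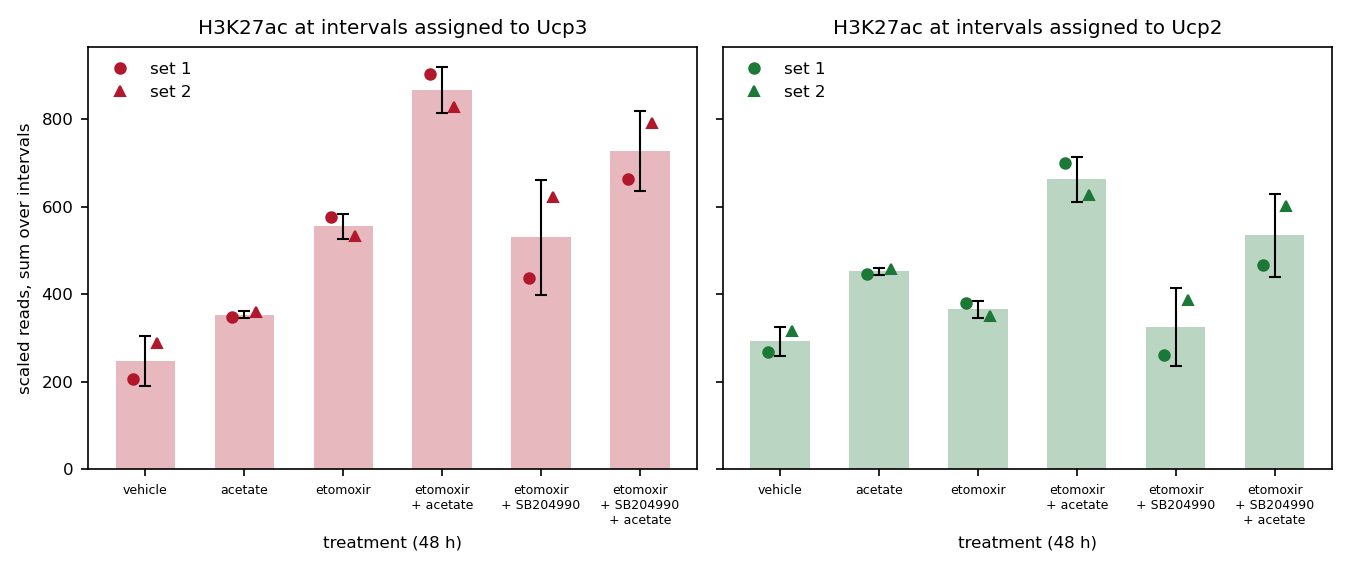
Scaled H3K27ac reads (vertical axis, from 0) summed over the intervals assigned to Ucp3 (left) and Ucp2 (right) in each of the 6 treatments (horizontal axis). Points are libraries of set 1 (circles) and set 2 (triangles), bars are means and error bars are SD with n = 2. For Ucp3 all 8 libraries with etomoxir (437 to 903) lie above the 4 without it (207 to 359).

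The largest Ucp3 interval lies upstream of the gene (chr7:100458900-100469983), and the largest Ucp2 interval covers the Ucp2 start (chr7:100490976-100500881). Their ratio, Ucp3 to Ucp2, within a library does not depend on its spike-in factor or depth. It was 0.508 and 0.591 in vehicle and 0.542 and 0.541 in acetate. It was 1.22 and 1.20 in etomoxir and 1.01 and 1.01 in etomoxir + acetate. With SB204990 added it was 1.37 and 1.29, and 1.17 and 1.07 when acetate was also present. The 8 libraries with etomoxir therefore had more scaled reads in this Ucp3 interval than in the Ucp2 interval, and the 4 without it had fewer. Within each inhibitor background that held etomoxir, the ratio was lower with acetate than without it in both sets.

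Against the median gene of its library, which also takes out the factor, Ucp3 lay at 0.453 to 0.691 on the log2 scale in the 4 libraries without etomoxir and at 1.44 to 1.87 in the 8 with it. Ucp2 lay at 0.823 to 0.974 without etomoxir and at 0.980 to 1.23 with it, highest in etomoxir + SB204990 + acetate (1.22 and 1.23). Both genes were thus higher with etomoxir on this scale, and for Ucp2 the nearest libraries, acetate set 1 and etomoxir set 2, were almost level.

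In etomoxir vs. vehicle, the log2 fold change was 1.18 ± 0.21 (SE of the limma fit over 12 libraries) for Ucp3, 1.47 within set 1 and 0.89 within set 2. The ratio of means was 2.24, and the median log2 fold change of all 19458 genes tested was 0.14. Ucp3 was at rank 13 of these genes from the highest. The Ucp2 value was 0.32 ± 0.21 (0.50 and 0.15 within the sets), at rank 2104, and was 0.10 to 0.19 under 3 other scalings (median-of-ratios, total reads in intervals, and each library's read shares times its factor). Both gene sums were higher without overlap, as were 40.2% of the genes tested. Of the intervals, 5 of 7 at Ucp3 and 1 of 3 at Ucp2 were higher without overlap, vs. 26.1% of all intervals.

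In etomoxir + acetate vs. acetate, Ucp3 had a log2 fold change of 1.29 ± 0.21 (1.38 and 1.20 within the sets), a ratio of means of 2.45. Ucp2 had 0.55 ± 0.21 (0.64 and 0.45), and the median of all genes was 0.43, so the common shift took up most of the Ucp2 value. The ranks were 48 and 4901. In this comparison 87.4% of gene sums were higher without overlap, those of both genes among them, and all 7 Ucp3 intervals and 2 of 3 Ucp2 intervals were, vs. 60.9% of all intervals.

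In etomoxir + SB204990 vs. vehicle, the median of all genes was -0.18 while Ucp3 had a log2 fold change of 1.09 ± 0.21 (1.07 and 1.11 within the sets), at rank 97. Without the set 2 library of etomoxir + SB204990 it was 0.84. The Ucp3 sums did not overlap, as in 1.02% of genes in this direction, and 3 of 7 intervals did not, vs. 5.72% of all intervals. The Ucp2 sums overlapped, with a log2 fold change of 0.13 ± 0.21 (-0.04 and 0.29), which was -0.16 without that library, 0.35 when scaled to total reads in intervals and 0.40 with read shares times the factor. In etomoxir + SB204990 + acetate vs. acetate, Ucp3 had 1.03 ± 0.21 (0.93 and 1.14) at rank 15, and Ucp2 had 0.23 ± 0.21 (0.07 and 0.39) at rank 1460, beside a median of -0.02. Both sums were higher without overlap, as were 5.29% of genes, and 4 of 7 Ucp3 intervals and 1 of 3 Ucp2 intervals were, vs. 14.2% of all intervals. The comparisons with vehicle share the vehicle libraries, and those with acetate share the acetate libraries.

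**Figure D2:**
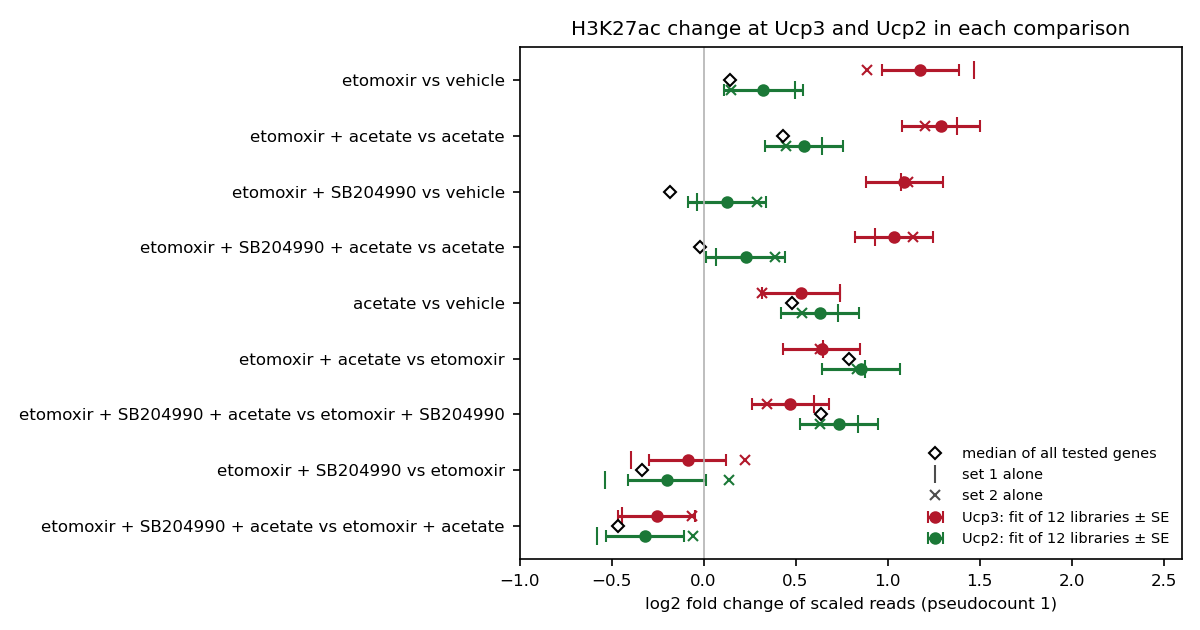
Log2 fold change of scaled H3K27ac reads (horizontal axis) summed over the intervals of Ucp3 (red) and Ucp2 (green) in 9 comparisons (rows). Circles with bars are the limma fit of 12 libraries ± SE, vertical ticks and crosses are set 1 and set 2 alone, and open diamonds are the median of all 19458 genes tested. Ucp3 lies at 1.03 to 1.29 in the 4 comparisons that add etomoxir and near the diamond in those that add acetate.

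Of the 3 Ucp3 intervals above the minimum level of 10, the change was largest in one upstream of the gene. This interval (chr7:100458900-100469983, 11084 bp, midpoint -8.55 kb from the Ucp3 start) lay within the 3′ part of C2cd3 and within Gm10603, did not reach Ucp3 itself, and carried 66.5% of the Ucp3 sum. The authors' annotation calls it promoter-TSS and gives Ucp3 as its gene, and whether it acts on Ucp3 was not tested. It had 121 and 160 scaled reads in vehicle, 224 and 215 in acetate, 390 and 373 in etomoxir and 605 and 539 in etomoxir + acetate. With SB204990 it had 316 and 398, and with SB204990 and acetate 475 and 547. The lowest library with etomoxir was above the highest without it. Its log2 fold change was 1.45 ± 0.20 in etomoxir vs. vehicle (rank 20 of 63903 intervals tested) and 1.38 ± 0.20 in etomoxir + acetate vs. acetate (rank 461). It was 1.34 ± 0.20 in etomoxir + SB204990 vs. vehicle (1.38 within set 1, rank 37) and 1.21 ± 0.20 in etomoxir + SB204990 + acetate vs. acetate (rank 32).

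The interval over the Ucp3 start (chr7:100470296-100477381, 7086 bp, 22.6% of the sum) also covers the start of Gm10603. It had 58.9 and 83.2 scaled reads in vehicle, 75.5 and 97.3 in acetate, 128 and 107 in etomoxir and 193 and 183 in etomoxir + acetate. With SB204990 it had 90.0 and 163, and with SB204990 and acetate 130 and 173. In each of the 4 comparisons the treated libraries were above their controls, and with SB204990 the lower of them (90.0) was close to the higher vehicle library (83.2). The log2 fold changes were 0.73, 1.12, 0.78 and 0.80 (SE 0.25) in the order of comparisons above, the third being 0.60 within set 1. The ratio of the upstream interval to the start interval, which is free of the spike-in factor, was 2.06 and 1.92 in vehicle and 3.04 and 3.51 in etomoxir. It was 2.97 and 2.20 in acetate and 3.13 and 2.94 in etomoxir + acetate, so the sets differed more in acetate than the means of these groups did. With SB204990 it was 3.51 and 2.44, the widest spread of the 6 treatments, and with SB204990 and acetate 3.65 and 3.16.

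Further Ucp3 intervals were weak. The interval at chr7:100456313-100458480, within C2cd3 and Gm10603, carried 5.95% of the sum and had log2 fold changes of 0.63, 1.04, 0.38 (0.61 within set 1) and 0.57 (SE 0.40), with overlap between groups in both comparisons with vehicle. The other 4, of 207 to 722 bp inside C2cd3, had 1 to 20 reads per library and a mean under 10 scaled reads, so they were not fitted and are not ranked with the others.

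The nearest-gene assignment splits the Ucp3 gene body between symbols. An interval inside Ucp3 (chr7:100478242-100482146) is assigned to Gm10603, and one in the last part of Ucp3 (chr7:100482628-100486202) is assigned to Ucp2. The interval assigned to Gm10603 had 32.3 and 55.5 scaled reads in vehicle and 67.4 and 52.7 in etomoxir, with overlap, and 51.9 and 62.0 in acetate vs. 140 and 118 in etomoxir + acetate, without overlap. Its log2 fold changes were 0.48, 1.17, 0.52 (0.56 within set 1) and 0.85 (SE 0.29). The interval assigned to Ucp2 had 23.8 and 34.1 scaled reads in vehicle, 53.1 and 30.3 in etomoxir, 25.4 and 43.9 in acetate and 86.0 and 69.1 in etomoxir + acetate. Its log2 fold changes were 0.48, 1.18, 0.45 (0.05 within set 1) and 0.84 (SE 0.35), and its libraries overlapped in both comparisons with vehicle. When Ucp3 was instead summed over all intervals that overlap its body or the 1000 bp before it, whatever their symbol, its log2 fold changes were 0.63, 1.16, 0.66 and 0.83, the third not computed without the library that stood apart. The choice of intervals thus moved the Ucp3 value by over 1.5 times in both comparisons with vehicle.

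The Ucp2 sum was mostly (86.2%) the interval over the Ucp2 start (chr7:100490976-100500881, 9906 bp). It had 238 and 271 scaled reads in vehicle, 319 and 310 in etomoxir and 231 and 308 in etomoxir + SB204990. It had 413 and 396 in acetate, 599 and 534 in etomoxir + acetate and 405 and 513 in etomoxir + SB204990 + acetate. The libraries overlapped in both comparisons that added etomoxir with SB204990 and did not in those with etomoxir alone. The log2 fold changes were 0.31, 0.48, 0.07 (-0.05 within set 1) and 0.17 (SE 0.20) and lay from -0.01 to 0.21 away from the medians over all intervals tested. The small interval between the genes (chr7:100489581-100490519) had 12 to 24 reads per library, and its log2 fold changes of 0.03, 0.50, 0.28 (-0.02 within set 1) and 0.10 all had an SE of 0.54.

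**Figure D3:**
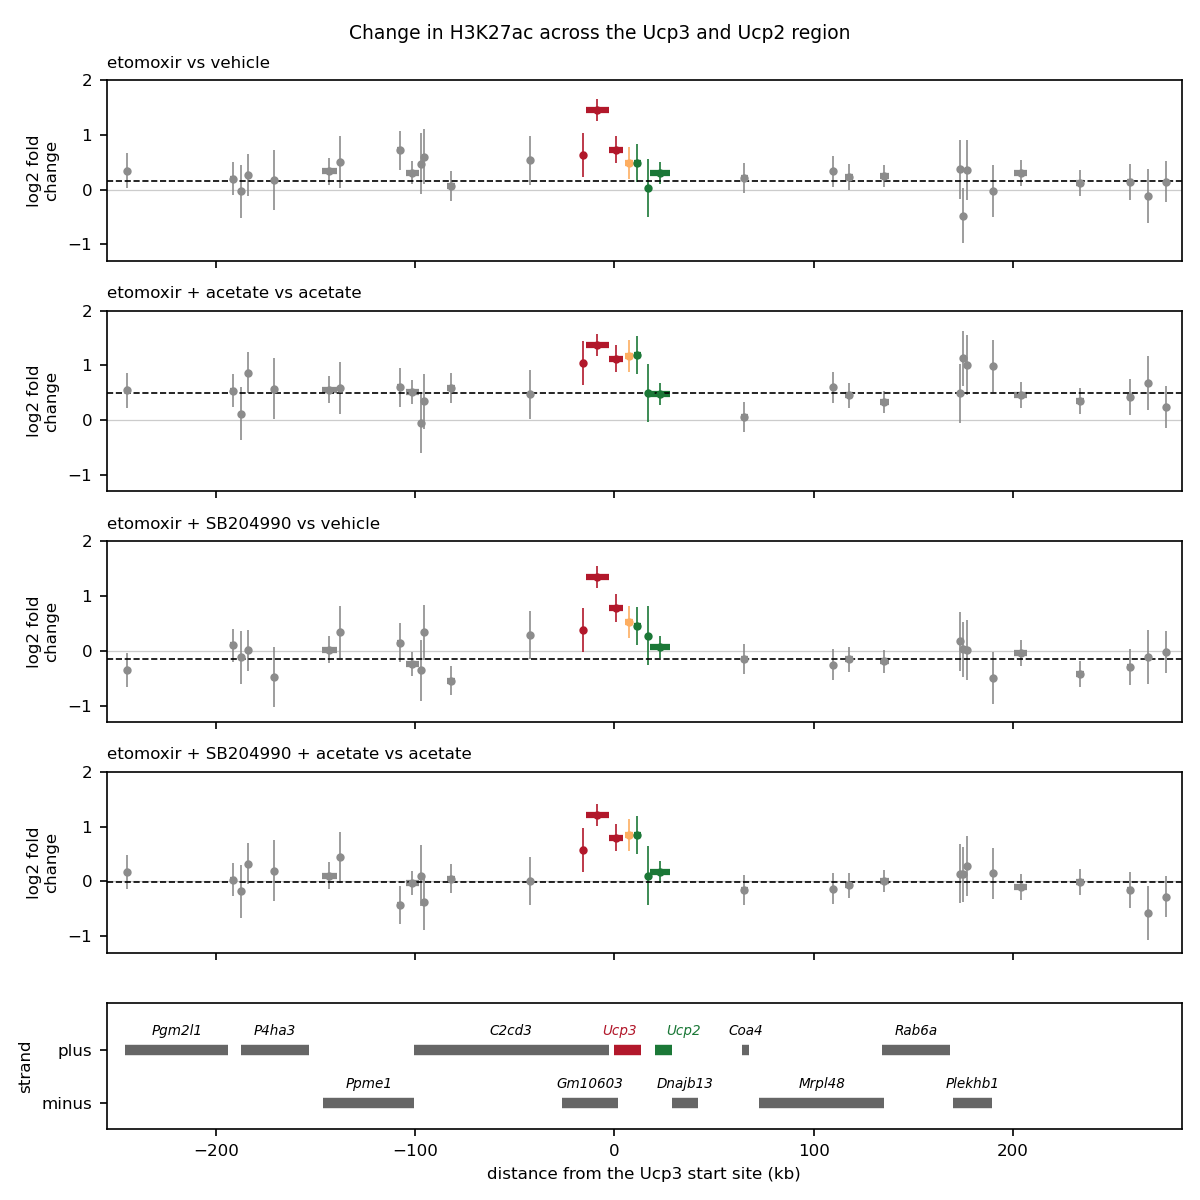
Log2 fold change of H3K27ac (vertical axes) in each tested interval against its distance in kb from the Ucp3 start site (horizontal axis) for the 4 comparisons that add etomoxir, with the genes of the region by strand below. Red marks intervals assigned to Ucp3, green Ucp2, orange the interval inside Ucp3 assigned to Gm10603, and grey the others. Horizontal bars span the intervals, vertical bars are SE and the dashed line is the median of all intervals tested. The red upstream interval is highest in each panel, at 1.21 to 1.45.

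Within 250 kb of the genes, 26 further intervals passed the minimum. Their log2 fold changes in etomoxir vs. vehicle ran from -0.48 to 0.71 with a median of 0.25, below the 1.45 of the Ucp3 upstream interval. In etomoxir + acetate vs. acetate they ran from -0.05 to 1.13 with a median of 0.53. In etomoxir + SB204990 vs. vehicle the range was -0.54 to 0.35 and the median -0.12, and in etomoxir + SB204990 + acetate vs. acetate the range was -0.57 to 0.44 and the median 0.01. These medians were close to those over all intervals tested, which were 0.15, 0.50, -0.14 and -0.01.

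With acetate, H3K27ac at both genes was higher by about as much as over all genes. In acetate vs. vehicle, the log2 fold change was 0.53 ± 0.21 for Ucp3 (0.74 and 0.32 within the sets) and 0.63 ± 0.21 for Ucp2 (0.73 and 0.53), beside a median of 0.48. Both sums were higher without overlap, as were 84.2% of genes, and 3 of 7 Ucp3 and 1 of 3 Ucp2 intervals were, vs. 50.1% of all intervals. In etomoxir + acetate vs. etomoxir, Ucp3 had 0.64 ± 0.21 (0.65 and 0.63) and Ucp2 0.86 ± 0.21 (0.88 and 0.83) beside a median of 0.79. All 10 intervals were higher without overlap there, vs. 78% of all intervals, and so were both sums, vs. 98.3% of genes. In etomoxir + SB204990 + acetate vs. etomoxir + SB204990, Ucp3 had 0.47 ± 0.21 (0.60 and 0.35) and Ucp2 had 0.74 ± 0.21 (0.84 and 0.63), beside a median of 0.64. The Ucp3 value was 0.73 without the set 2 library of etomoxir + SB204990 and 0.22 without its set 1 library. Both sums were higher without overlap, as were 70.3% of genes, and 3 of 7 Ucp3 and 1 of 3 Ucp2 intervals were, vs. 38.6% of all intervals. After median-of-ratios scaling, which takes out a shift shared by all intervals, the acetate values of Ucp3 were 0.03, -0.23 and -0.09 and those of Ucp2 were 0.14, -0.01 and 0.17. The medians of all genes were then -0.01, -0.08 and 0.08, so a negative value there does not by itself mean a change below the median gene. Ucp2 lay above the median in each of these comparisons. Ucp3 lay above it in acetate vs. vehicle and below it in the others. The etomoxir values of Ucp3 after that scaling were 1.02, 0.75, 1.15 and 1.03.

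**Figure D4:**
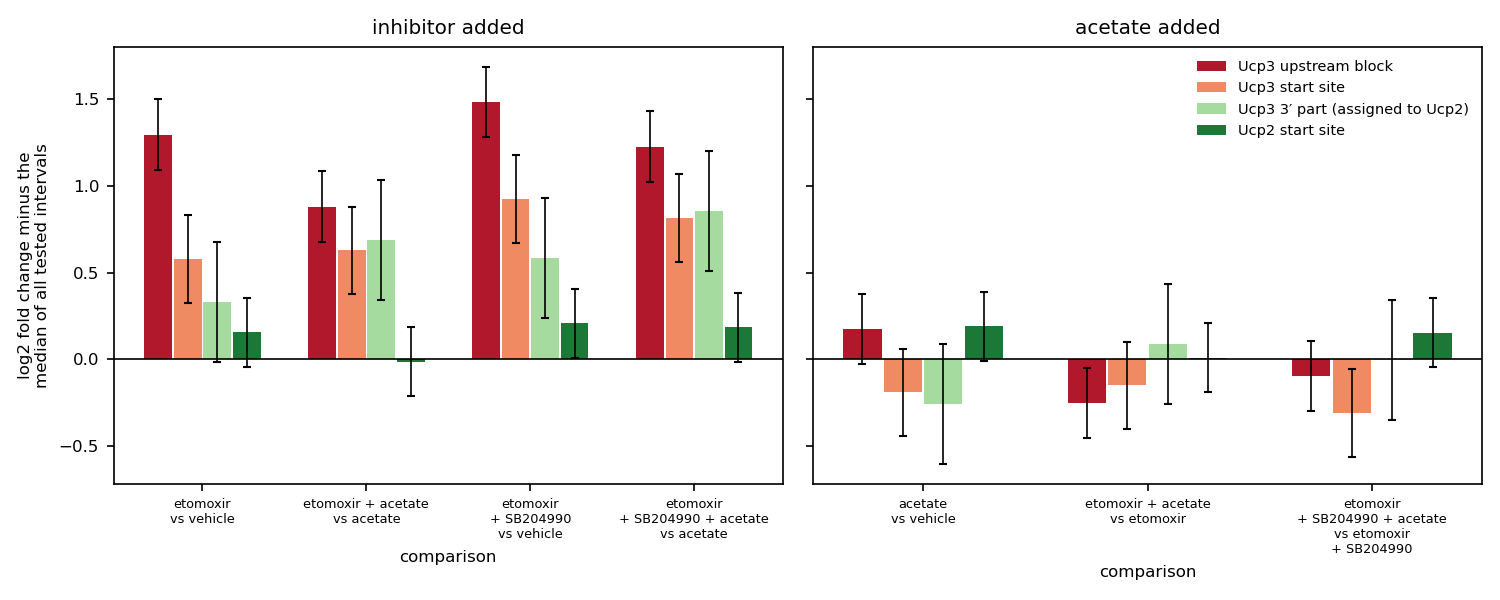
Log2 fold change minus the median of all intervals tested (vertical axis) for 4 intervals, in the 4 comparisons that add etomoxir (left) and the 3 that add acetate (right). Bars are the limma values and error bars are SE. The Ucp3 upstream interval lies 0.88 to 1.48 above the median on the left and between -0.25 and 0.17 on the right, and the Ucp2 start interval stays within 0.21 of the median.

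Adding SB204990 to etomoxir left the Ucp3 libraries overlapping those of etomoxir alone. The log2 fold change in etomoxir + SB204990 vs. etomoxir was -0.09 ± 0.21 for Ucp3 (-0.40 and 0.22 within the sets) and -0.20 ± 0.21 for Ucp2 (-0.54 and 0.14), beside a median of -0.33. The sign differed between the sets for both genes, and without the set 2 library of etomoxir + SB204990 the values were -0.34 and -0.48. With both sets, median-of-ratios scaling turned the values of Ucp3 and Ucp2 to 0.14 and 0.02. Scaling to total reads in intervals gave 0.27 and 0.16, and read shares times the factor gave 0.41 and 0.30. Of the intervals, 0 of 7 at Ucp3 and 1 of 3 at Ucp2 were lower without overlap, vs. 23.6% of all intervals. In etomoxir + SB204990 + acetate vs. etomoxir + acetate, Ucp3 had -0.26 ± 0.21 (-0.45 and -0.07) and Ucp2 -0.32 ± 0.21 (-0.58 and -0.06), beside a median of -0.46. Both sums were lower without overlap, as were 85.6% of genes, and 6 of 7 Ucp3 and 1 of 3 Ucp2 intervals were, vs. 59.4% of all intervals. Under median-of-ratios scaling these values turned to 0.27 and 0.21.

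PPAR target genes were examined as the pathway Ucp3 is known to belong to. Of 35 listed genes, 25 passed the minimum level. In etomoxir vs. vehicle 1 rose and 0 fell (limma, adjusted p under 0.05 over all genes), in a background of 0.0154% of genes called higher, and 8 had an unadjusted p under 0.05, as did 133 of all 19458 genes tested. The list median was 0.37, beside 0.14 for all genes. In etomoxir + acetate vs. acetate 4 rose (0.0771% of all genes; list median 0.73, all genes 0.43). In etomoxir + SB204990 vs. vehicle 1 rose (0.00514%; 0.16 vs. -0.18), and in etomoxir + SB204990 + acetate vs. acetate 3 rose (0.0463%; 0.12 vs. -0.02). None fell in these comparisons, and in edgeR on the recovered reads the counts were 1, 3, 1 and 3. The counts ran from 1 to 6, 1 to 21, 0 to 7 and 0 to 4 as single libraries were left out, with the highest counts reached when a library of etomoxir + SB204990 was absent. Over all genes the calls then ran from 1 to 34, 2 to 8455, 0 to 1064 and 0 to 22, with the highest counts also reached when a library of that treatment was absent, so the background moved with the list. Under median-of-ratios scaling they were 0, 0, 1 and 1, and with no intensity trend in limma all were 0.

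The gene that rose in all 4 comparisons was Pdk4, the kinase that restrains pyruvate dehydrogenase. Its log2 fold change was 1.46 ± 0.19 in etomoxir vs. vehicle (limma, adjusted p = 0.000832) and 1.62 ± 0.19 in etomoxir + acetate vs. acetate (adjusted p = 0.000129). In the comparisons with SB204990 it was 1.22 (adjusted p = 0.0191, with 1.21 within set 1) and 1.33 (adjusted p = 0.00432). Acot2, a mitochondrial acyl-CoA thioesterase, rose in etomoxir + acetate vs. acetate (1.39, limma adjusted p = 0.00197) and in etomoxir + SB204990 + acetate vs. acetate (1.20, adjusted p = 0.0317) and had 1.09 (adjusted p = 0.0727) in etomoxir vs. vehicle. Cpt1a, which encodes the liver form of the enzyme that etomoxir inhibits, rose in etomoxir + acetate vs. acetate (0.96 ± 0.19, adjusted p = 0.0469) and had 0.83 (adjusted p = 0.336) in etomoxir vs. vehicle.

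Of list genes with no call, Acot1, the cytosolic relative of Acot2, had log2 fold changes of 0.99 and 1.35 in the comparisons with etomoxir alone. Cpt2, the inner-membrane palmitoyltransferase, had 0.79 and 1.08, and Decr1, a reductase for the oxidation of unsaturated fatty acids, had 0.61 and 0.41 at a mean of only 19.1 scaled reads. Acot1 and Acot2 are near-identical neighbouring genes, so reads may be split between them.

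**Figure D5:**
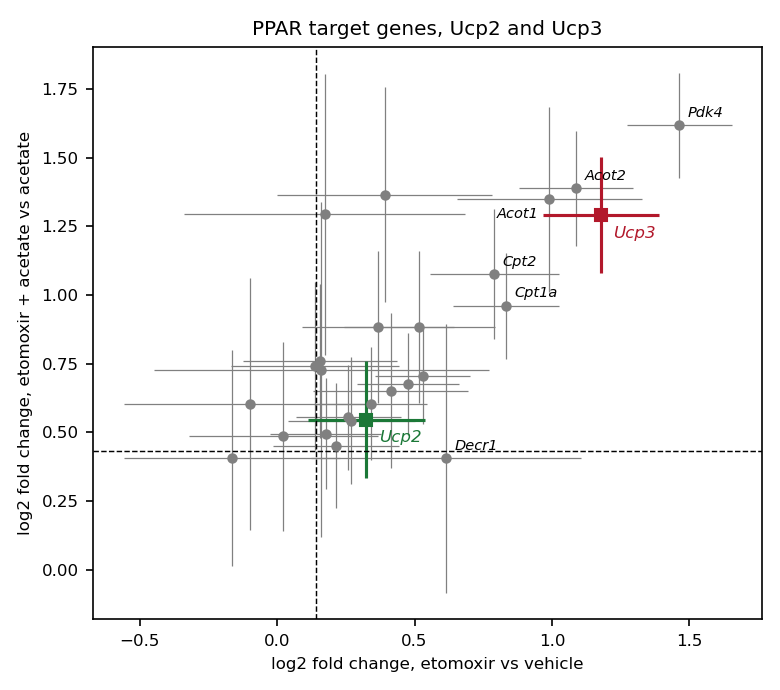
Log2 fold change in etomoxir + acetate vs. acetate (vertical axis) against that in etomoxir vs. vehicle (horizontal axis) for PPAR target genes (grey), Ucp3 (red) and Ucp2 (green), with SE bars and the medians of all genes as dashed lines. Ucp3 (1.18 and 1.29) lies near Acot2 (1.09 and 1.39), and Ucp2 (0.32 and 0.55) lies nearer the medians.

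Carriers related to the uncoupling proteins showed no call in the comparisons that add etomoxir. Of 11 listed genes 9 passed the minimum, 0 were called by limma, and 0, 5, 0 and 0 had an unadjusted p under 0.05, beside 133, 6334, 825 and 132 of all 19458 genes. Their medians were 0.32, 0.46, -0.07 and 0.11, beside 0.14, 0.43, -0.18 and -0.02 over all genes. Ucp1, the uncoupling protein of brown fat, had log2 fold changes of 0.58, 0.45, 0.40 and 0.35 (SE 0.37, limma adjusted p 0.313 to 1.00). Of 12 regulators known for the Ucp genes, PPARs, RXRs, thyroid hormone receptors and their coactivators among them, 10 passed the minimum. None was called by limma and 0, 5, 0 and 0 had an unadjusted p under 0.05, with medians of 0.04, 0.45, -0.18 and 0.05, beside the all-gene counts and medians above. By edgeR on the recovered reads 0 genes of either list were called in these comparisons.

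The genes whose pattern over the 12 libraries was most like that of Ucp3, after the median of all genes was subtracted in each library, were Pdk4 (Pearson r = 0.987), 5330413D20Rik (0.986), Nceh1 (0.985), Gm17251 (0.985) and Gm49390 (0.984), among 15533 genes with a mean of at least 50. Of these, Gm49390 changed nearly as much as Ucp3 in etomoxir vs. vehicle (1.01), while Nceh1, a cholesteryl ester hydrolase, had 0.69. The genes most like Ucp2 were Slc37a2 (0.945), Cfap53 (0.935), Slc25a42 (0.925), Gm19402 (0.913) and Irf2bp2 (0.912). Slc25a42, a mitochondrial carrier of coenzyme A, had log2 fold changes of 0.47 in etomoxir vs. vehicle and 0.67 in acetate vs. vehicle. The correlation between Ucp2 and Ucp3 was 0.793. These are descriptions over libraries that share treatments, and no p is given.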

How the data were processed

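H3K27ac ChIP-seq was available for 12 libraries of 4T1 cells. The deposited table holds 1 signal value per interval and library, which the authors made by multiplying the reads in the interval by a spike-in factor from the percentage of human reads, divided by the highest factor. Per the study's methods, reads were aligned to merged GRCh38 and mm10 with nf-core/chipseq, and how many libraries were used to call intervals is not given in the sources used here. A factor moves all intervals of a library together and leaves its depth in the values. Division by the value of 1 read gave whole reads for 100% of values in 10 libraries (tolerance 0.01), and in 2 the factor was 1, so both reads and factors were recovered. The highest factor was in set 1 for etomoxir + acetate and in set 2 for etomoxir + SB204990, so the sets may be on separate scales, and the log2 fold changes of the Ucp2 and Ucp3 sums are also given set by set.

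Scaled values were summed per symbol and tested with limma 3.58.1 (R 4.3.3) on log2(sum + 1) with an intensity trend. A single model held all 12 libraries and the 6 treatment means without a covariate, for 19458 genes with a mean of at least 10, with Benjamini-Hochberg adjustment over all of them within a comparison. Intervals (63903) were fitted likewise. The pseudocount of 1 understates changes of low intervals. Members and lists were chosen with earlier results of these data known, and the lists support nothing beyond their counts. The rule for named genes took the members, the intervals within 250 kb (given as ranges where not assigned to the members or inside Ucp3), list genes called in at least 1 of 4 etomoxir comparisons with up to 8 of the largest changes in etomoxir vs. vehicle, and the 5 genes most alike by Pearson correlation. edgeR 4.0.16 quasi-likelihood tests on the recovered reads called 2, 13, 1 and 9 genes higher in the comparisons that add etomoxir, vs. 3, 15, 1 and 9 by limma. Some listed genes that the rule takes, called ones included, are counted but not reported here by name or in the plot of PPAR targets. Alternatives were other scalings, pseudocounts, filters, interval choices, a replicate block, and leaving out each library. Motifs were searched by exact letters in GRCm38.p6. Input libraries were not used here.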

Additional observations from a re-analysis of the deposited data

How the results depend on the processing

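The 4 etomoxir values of Ucp3 were above 0 under every alternative run, from 0.63 to 1.45. Under median-of-ratios scaling, etomoxir + acetate vs. etomoxir turned to -0.229 for Ucp3 and -0.0137 for Ucp2, etomoxir + SB204990 + acetate vs. etomoxir + SB204990 to -0.0920 for Ucp3 and 0.172 for Ucp2, and etomoxir + SB204990 + acetate vs. etomoxir + acetate to 0.27 and 0.21. Acetate vs. vehicle was then 0.0339 and 0.138, and etomoxir + acetate vs. acetate 0.755 and 0.0117. Total-sum scaling gave, in the same order, -0.10 and 0.11, -0.193 and 0.0713, 0.18 and 0.11, 0.0605 and 0.165, and 0.89 and 0.14, and for etomoxir + SB204990 vs. etomoxir 0.27 for Ucp3 and 0.16 for Ucp2. By construction both scalings take out a shift shared by all intervals. Read shares times the factor gave 0.41 and 0.30 for that comparison, and 0.0538 and 0.32 for etomoxir + SB204990 + acetate vs. etomoxir + SB204990. Intervals by gene body, an alternative chosen after seeing the data, gave 0.63 for Ucp3 in etomoxir vs. vehicle and 0.66 in etomoxir + SB204990 vs. vehicle. These sums leave out the intervals upstream and take in those inside Ucp3 assigned to Gm10603 and Ucp2.

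With single libraries left out, where a lone library is assumed to vary like the other groups, Ucp3 ranged from 0.94 to 1.42 in etomoxir vs. vehicle, 1.23 to 1.35 in etomoxir + acetate vs. acetate, 0.84 to 1.35 in etomoxir + SB204990 vs. vehicle and 0.91 to 1.16 in etomoxir + SB204990 + acetate vs. acetate. For acetate it ranged from 0.29 (without vehicle set 1) to 0.77, 0.58 to 0.70 and 0.22 (without etomoxir + SB204990 set 1) to 0.73, and for SB204990 from -0.34 to 0.17 and -0.38 to -0.13. Ucp2 ranged, in the order of the 9 comparisons, from 0.21 to 0.44, 0.47 to 0.63, -0.16 to 0.41, 0.05 to 0.41, 0.52 to 0.75, 0.78 to 0.94, 0.45 to 1.02, -0.48 to 0.08 and -0.50 to -0.14.

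The counts of PPAR target genes called higher (1, 4, 1 and 3) were the least stable. They were 0, 0, 0 and 0 without an intensity trend and also with read shares times the factor, and 0, 0, 1 and 1 under median-of-ratios scaling. Total-sum scaling gave 3 in etomoxir vs. vehicle and 6 in etomoxir + SB204990 vs. vehicle, where 27 and 62 of all genes were called higher. With no filter on low values they were 2, 0 and 0 in the last 3 comparisons, and a mean of at least 50 gave 2 in the first. Over all genes 5, 0 and 0 were called higher without the filter, and 6 with a mean of at least 50. Fitting only the 4 libraries of a comparison gave 4, 21 and 0 in the first 3, where 22, 14228 and 0 (208 at an unadjusted p under 0.05) of all 19458 genes were called higher by limma. Leaving out single libraries gave 1 to 6, 1 to 21, 0 to 7 and 0 to 4. Without etomoxir + SB204990 set 1 the counts were 6, 21, 7 and 4, and without its set 2 library 6, 20, 4 and 4, while over all genes 34, 8394, 1064 and 22, and 34, 8455, 14 and 22, were called higher. In etomoxir + acetate vs. acetate, leaving out either library of acetate, etomoxir + acetate or etomoxir + SB204990 + acetate gave 1 or 2. In etomoxir + SB204990 vs. vehicle, leaving out vehicle set 1 or either library of etomoxir + SB204990 + acetate gave 0. In etomoxir + SB204990 + acetate vs. acetate, leaving out a library of either of its groups gave 0 and one of etomoxir or etomoxir + acetate gave 1. The causes were not tested.

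The suffix, whose meaning is not given and which marks 1 library of each treatment, was not taken to pair the libraries: over 15 same-suffix pairs, the correlation of deviations from the group means ran from -0.22 to 0.60 with a median of -0.14, and was over 0.1 in 4. With the suffix as a replicate block the counts of PPAR targets were 4, 7, 3 and 3, and of all genes called higher 15, 61, 13 and 14. In acetate vs. vehicle 3888 genes were then called higher, vs. 0 by limma without the block (8341 at an unadjusted p under 0.05), and in etomoxir + SB204990 vs. etomoxir 188, vs. 0 (4087). Without the block edgeR also called 0 in both. In this balanced layout the block cannot move a fold change, so it says nothing about the values of Ucp2 and Ucp3. Each member rests on 364 to 1098 reads per library, and 2 libraries per treatment limit the precision.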
